A study of Homo sapiens with 12 samples.

Results

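The NF-kB pathway and cytokine genes described here are 39 genes chosen by name. No measured value entered the rule, but earlier results of these data were known when the members were chosen. They comprise 5 subunits of the NF-kB transcription factor, 5 inhibitors and atypical proteins of the IkB type, 5 feedback and signalling regulators, 3 genes of the TNF superfamily, 12 genes of interleukins, LIF, colony-stimulating factors and a receptor chain, 7 chemokines and 2 effectors. Each of the 39 symbols was found once among the 23434 genes of the count table. Of these members, 31 had enough reads to be tested in at least 1 comparison and 28 in every comparison. The 8 that were tested in none are IL1B, IL6, IL7, IL15, CXCL1, CXCL2, CCL5 and ICAM1.

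NF-kB is a family of dimeric transcription factors that IkB proteins hold in the cytoplasm. Signals from TNF, IL-1 or Toll-like receptors lead to the destruction of IkB, and the freed dimers enter the nucleus and switch on genes for cytokines, chemokines and survival factors. Among their targets are genes for the inhibitors themselves, such as NFKBIA (the IkB-alpha protein) and TNFAIP3 (A20, an enzyme that edits ubiquitin chains), which close a negative feedback loop. Cytokines such as IL-11, LIF and CCL2 are made by many cells of mesenchymal origin, bone-forming cells among them.

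Newly made RNA was measured by EU-seq in U2OS cells, a human osteosarcoma line, carrying MycER, a fusion of Myc with the estrogen receptor that enters the nucleus once 4-hydroxytamoxifen (OHT) binds it. The 4 groups of 3 libraries were a non-targeting shRNA (shNT), the same with OHT (shNT_OHT), an shRNA named for the transcriptional kinase CDK12 (shCDK12), and that shRNA with OHT (shCDK12_OHT). OHT was given at 300 nM for 40 h. All 4 groups received doxycycline (1 µg/mL) and an 8 h block with nocodazole (100 ng/mL), and cells were harvested 12 h after they were freed from it. RNA made in the cells was tagged by 5-ethynyl-uridine (0.5 mM, 2 h), and before capture 40 µg of it was mixed with 10 µg of labelled mouse RNA. Nothing in the labels says that the 3 libraries of a group came from separate cultures, so the p-values measure the spread between these libraries, which may be technical. The comparisons ask how these genes are transcribed upon MycER activation, with the CDK12 shRNA, and whether the response to OHT differs between the shRNAs.

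Counts per library summed to between 1251695 and 10447836, an 8.35-fold range, with group medians of 4314380 in shNT, 3297982 in shNT_OHT, 5349901 in shCDK12 and 7173020 in shCDK12_OHT. The shNT_OHT libraries were also the least alike, with Pearson r across genes from 0.92 to 0.95 against 0.97 to 0.99 within the other groups. The level of each gene is given as CPM, the counts scaled to an equal library total, after TMM normalization over the 12 libraries and without correction for gene length, so levels are compared between libraries and not between genes. CDK12, the gene named in the shRNA labels, had from 289 to 323 CPM in shNT, 356 to 434 in shNT_OHT, 277 to 298 in shCDK12 and 208 to 218 in shCDK12_OHT. It was lower in shCDK12_OHT than in shNT_OHT (log2 fold change -0.88 ± 0.11, edgeR adjusted p = 0.00011), but shCDK12 and shNT differed by only -0.08 ± 0.10 (adjusted p = 0.447), and that sign turned with upper-quartile normalization and with the gene length trend removed. An shRNA acts on finished transcripts, and the reads counted here come from newly made RNA, so this is an indirect check, and the groups are called the libraries labelled shCDK12 throughout.

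Of the 8 markers of osteosarcoma or mesenchymal cells, RUNX2, COL1A1, SPARC and VIM had means from 46.2 to 330 CPM in the 4 groups. COL5A1 was lower, from 6.67 to 22.7 CPM over the 12 libraries, and ALPL ran from 1.99 to 8.02. COL1A2 was at or under 5 counts in every library and TWIST1 was at 0 in 11 of 12. Of the 7 leukocyte markers, PTPRC, CD3E and LYZ had group means under 0.46 CPM, CD68 had 13.2 to 21.1, CSF1R 5.23 in shNT and 10.9 in shCDK12, and ITGAM 0.763 in shNT and 4.73 in shCDK12, and of the 2 tested in that comparison CSF1R was higher. The summed level of the mesenchymal list ran from 849 to 948 CPM in shNT, 674 to 720 in shNT_OHT, 380 to 385 in shCDK12 and 481 to 497 in shCDK12_OHT, and 5 of its 5 tested genes were lower in shCDK12 than in shNT. That list thus moved with the same groups as many cytokine genes below, and its part in their results was not tested. The summed leukocyte list ran from 27.2 to 29.1 CPM in shNT, 24.1 to 36.3 in shNT_OHT, 34.5 to 39.1 in shCDK12 and 27.9 to 29.9 in shCDK12_OHT, with no overlap between shNT and shCDK12. The summed epithelial list ran from 692 to 850 CPM in the other 3 groups and from 995 to 1080 in shCDK12_OHT, and upon OHT in shCDK12 3 of its 5 tested genes were higher and 1 lower. The parts of these lists in the members' results were not tested either.

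Promoter sequences from RefSeq (GRCh38.p14, 250 bases before to 50 after a gene's start) were matched by gene identifier for 30 of the 39 members, with 44 promoters. RELB, NFKBIE, IL7, IL15, IL18, LIF, CSF1, CCL2 and CCL5 had no entry. The kB consensus, searched on both strands with overlapping matches merged, was found in 19 of the 44 promoters (43.2%), against 6.47% of the 22921 promoters of genes in the count table. The AP-1 letters TGANTCA, where N is any base, form a pattern that reads the same on both strands. They were found in 7 of the 44 (15.9%), against 6.33%. By gene, 17 members held the kB consensus, 6 the AP-1 letters, 2 both (NFKBIB and TNFRSF9) and 9 neither. The AP-1 match of NFKBIB reads TGAATCA, while those of the other members read TGACTCA or TGAGTCA. Many of these genes are known as NF-kB targets, so these shares describe the choice of members and are no finding about the libraries.

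Shown first, with the kB match in capitals, are 5 members that rose upon OHT in shNT, followed by 3 with the AP-1 letters in capitals that also changed upon OHT there. Each is printed 5′ to 3′ on the strand of the gene. NFKBIA lies on the minus strand at chr14:35404796-35404855, NFKBIB on the plus strand at chr19:38899916-38899968, NFKB2 on the plus strand at chr10:102394446-102394534, TNFAIP3 on the plus strand at chr6:137867167-137867238 and IL32 on the plus strand at chr16:3065279-3065339. IL11 lies on the minus strand at chr19:55370528-55370584, TNFSF15 on the minus strand at chr9:114792619-114792675 and CXCL8 on the plus strand at chr4:73740407-73740463. All 8 stretches lie upstream of the gene start they were taken from. A match describes letters and is not a measured binding site. The stretches were picked from members called upon OHT in shNT. NFKB1, REL, NFKBIZ, BCL3, TNIP1, BIRC3 and TNFRSF9 also hold the kB consensus and were not called there. TRAF1 rose and TNFAIP2 fell there with neither motif.
NFKBIA: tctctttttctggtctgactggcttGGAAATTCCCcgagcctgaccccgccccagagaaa
NFKBIB: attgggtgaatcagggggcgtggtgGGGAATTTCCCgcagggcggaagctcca
NFKB2: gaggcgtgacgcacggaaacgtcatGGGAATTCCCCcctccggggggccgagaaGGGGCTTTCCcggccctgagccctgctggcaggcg
TNFAIP3: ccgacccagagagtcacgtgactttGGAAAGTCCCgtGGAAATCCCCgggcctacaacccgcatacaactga
IL32: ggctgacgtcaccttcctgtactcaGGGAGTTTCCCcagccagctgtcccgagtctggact
IL11: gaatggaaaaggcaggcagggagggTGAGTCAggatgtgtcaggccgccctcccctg
TNFSF15: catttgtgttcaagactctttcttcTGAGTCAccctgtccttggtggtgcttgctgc
CXCL8: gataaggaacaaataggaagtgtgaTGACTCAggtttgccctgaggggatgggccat

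When MycER was activated in shNT cells, 3 of the 5 inhibitor genes (NFKBIA, NFKBIB and NFKBIE) rose. So did 2 of the 5 feedback and signalling regulators (TNFAIP3 and TRAF1), together with NFKB2, IL32 and CXCL8. TNFSF15, IL11 and another of these regulators, TNFAIP2, fell. Of 28 members tested, 8 were higher and 3 lower by edgeR's quasi-likelihood test at an adjusted p under 0.05, where 9.05% of all genes tested were higher and 8.29% lower. The median log2 fold change was -0.09 over the members and -0.03 over all genes. Once the gene length trend was removed, the members called split into 5 higher and 6 lower. The count of 11 fell to 6, 3 and 6 without shNT replicate 1, 2 and 3. It rose to 14 (7 higher, 7 lower) without shNT_OHT replicate 1. Only NFKBIA, TNFAIP3 and TNFSF15 kept their call in every alternative that tested them. With libraries thinned to the smallest total, 2 of the 11 were not tested, TNFSF15 among them.

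In the libraries labelled shCDK12 against shNT, most cytokine and chemokine genes that could be tested were lower and IL1A was much higher. LIF, IL11, CSF2 and CCL2 were lower at log2 fold changes from -2.12 to -4.07, as were TNFAIP2, TNFSF15, BCL3 and BIRC3. Of 29 members tested, 9 were higher and 15 lower, where 29.6% of all genes tested were higher and 32.4% lower, and the median was -0.26 over the members and -0.03 over all genes. With libraries thinned to the smallest total, 5 of the 24 called members were not tested. In every alternative that tested them, the calls of 22 of the 24 members held. The exceptions were NFKBIZ, called lower at -0.26 but not without shNT replicate 1 (-0.14), shNT replicate 2 (-0.28) or shCDK12 replicate 1 (-0.22), and CXCL8, not called by DESeq2 (-0.71, adjusted p = 0.0627).

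**Figure D1:**
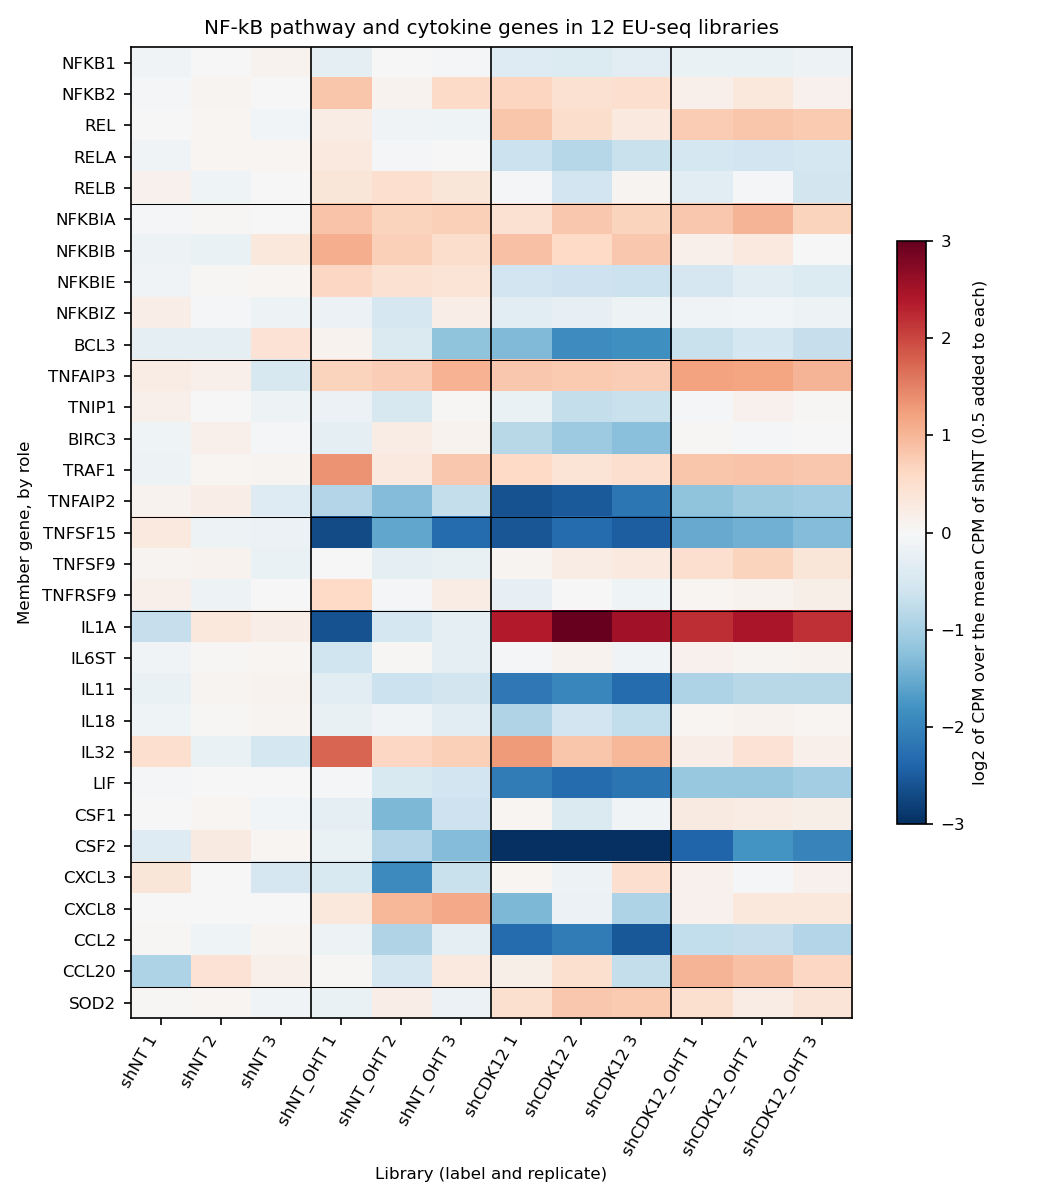
Log2 of the CPM of each of the 31 tested members in each library over the gene's mean CPM in shNT (0.5 CPM added to each), with genes by role on the vertical axis and the 12 libraries by group on the horizontal axis. The colour scale ends at 3 in both directions, which 3 values exceed; the darkest blue cells are CSF2 in shCDK12 and the darkest red are IL1A in shCDK12.

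Upon OHT in the libraries labelled shCDK12, 5 of the 5 feedback and signalling regulators rose, as did 3 of 4 tested chemokines. Of 8 tested genes of the interleukin, LIF and CSF role, 5 rose and 1, IL32, fell. CSF2, CCL2, TNFAIP2, IL11, LIF, BIRC3 and TNFSF15 gained from 1.05 to 1.98 on the log2 scale, while IL32, NFKBIB, SOD2 and NFKB2 were lower. Of 31 members tested, 16 were higher and 4 lower, against 27.5% and 21.5% of all genes tested, with medians of 0.33 over the members and 0.05 over all genes. The call held for 14 of the 20 in every alternative that tested them, and 6 of the 20 were not tested with thinned libraries. It was lost without 1 library for CCL20 (log2 fold changes without each library from 0.53 to 1.19), CSF1 (0.25 to 0.52), SOD2 (-0.43 to -0.26), TNFSF9 (0.24 to 0.40) and TRAF1 (0.28 to 0.39). NFKB2 lost it with thinned libraries (-0.23) and in 1 fit of all libraries (-0.34).

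With OHT in both arms, the libraries labelled shCDK12 were higher than shNT_OHT for IL1A, REL, TNFSF9, TNFSF15, CSF1, IL18, IL6ST, SOD2 and CCL20, and lower for RELA, RELB, NFKBIB, NFKBIE, IL11, IL32, LIF, CSF2 and CXCL8. These are 9 members each way of 30 tested, against 23.8% higher and 21.6% lower among all genes, and the medians were -0.06 over the members and 0.05 over all genes. Only 7 of the 18 calls held in every alternative that tested the member, those of IL1A, REL, RELA, TNFSF9, NFKBIE, LIF and CSF2. With thinned libraries, 6 of the 18 were not tested, and IL1A was tested in only 5 of the fits that left out 1 library. The count was 8, 10 and 8 without shCDK12_OHT replicate 1, 2 and 3.

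Each group enters 2 of the 4 pairwise comparisons, so these share libraries and are not independent of each other. The levels in all 4 groups are therefore given side by side below, by role. In some comparisons a called member had a mean normalized count above the minimum of 32 only in the group where it is high. It passed the filter through that group, which favoured a difference without fixing the call. This held for TNFSF15 upon OHT in shNT, for IL1A, CSF2, TNFSF15 and BCL3 in shCDK12 against shNT, for CSF2 and BCL3 upon OHT in shCDK12, and for IL1A and CCL20 between the OHT groups. Their folds rest on few counts in the low group, and their calls do not show more than the values given below. Over the 29 members tested in the fit of all libraries, the lowest group mean was in shCDK12 for 16, in shNT for 7, in shNT_OHT for 5 and in shCDK12_OHT for 1. The highest was in shNT for 9, shNT_OHT for 9, shCDK12_OHT for 8 and shCDK12 for 3. These counts were not set against all genes tested, so they do not mark the members out from other genes.

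Among the subunits, RELA, which encodes the p65 subunit with a transactivation domain, was lower with the CDK12 label whether or not OHT was given. Its level was 195, 217 and 217 CPM in the shNT libraries and 259, 203 and 210 in shNT_OHT. It was 133, 116 and 131 CPM in shCDK12 and 146, 141 and 146 in shCDK12_OHT. No library labelled shCDK12 reached the lowest of the shNT libraries, and the log2 fold changes were -0.73 ± 0.10 without OHT (adjusted p = 3.28e-07) and -0.62 ± 0.12 with it (adjusted p = 0.00201). REL, which encodes c-Rel, went the other way, from 33.6 to 36.7 CPM in shNT to 43.7 to 63.5 in shCDK12 (log2 fold change 0.56 ± 0.15) and from 32.5 to 41.7 in shNT_OHT to 60.7 to 63.6 in shCDK12_OHT (0.80 ± 0.15).

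NFKB2, which encodes the p100 precursor of p52 in the non-canonical branch, had 72.8, 81.2 and 75.2 CPM in shNT. It had 136, 82.5 and 115 CPM in shNT_OHT, 119, 106 and 109 in shCDK12, and 84.9, 94.8 and 84.0 in shCDK12_OHT. Every library of the other 3 groups lay above all shNT libraries, by little in shNT_OHT replicate 2. Its log2 fold change upon OHT was 0.56 ± 0.17 in shNT and -0.33 ± 0.09 in shCDK12, and the first was not called without any 1 of the shNT libraries or shNT_OHT replicate 3 (0.52, 0.58, 0.56 and 0.57). NFKB1, the precursor of p50, was lower in shCDK12 (-0.38 ± 0.11, adjusted p = 0.00428) and not called in the other comparisons. RELB, the partner of p52, was called only between shCDK12_OHT, from 13.6 to 19.7 CPM, and shNT_OHT, from 26.3 to 28.9 (-0.69 ± 0.20), a call lost without shCDK12_OHT replicate 1 (-0.67) or 3 (-0.58).

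Of the inhibitors, NFKBIA was lowest in shNT, at 138, 148 and 146 CPM. It had 259, 229 and 236 CPM in shNT_OHT, 196, 251 and 231 in shCDK12 and 252, 291 and 230 in shCDK12_OHT. The 9 libraries outside shNT all lay above the 3 of shNT and overlapped one another. The rise upon OHT in shNT was 0.74 ± 0.12 on the log2 scale (adjusted p = 0.00116) and the difference of shCDK12 from shNT 0.66 ± 0.10 (adjusted p = 2.58e-06), whereas OHT within shCDK12 gave 0.19 ± 0.10 (adjusted p = 0.123).

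NFKBIB, which encodes IkB-beta, had 28.1, 27.1 and 39.1 CPM in shNT and 67.4, 52.0 and 45.2 in shNT_OHT. In shCDK12 it had 57.9, 48.2 and 55.5 CPM, and in shCDK12_OHT 35.0, 38.4 and 31.2. Both single conditions stood above shNT, and the combination fell back to the range of shNT. Upon OHT its log2 fold change was 0.83 ± 0.22 in shNT and -0.61 ± 0.12 in shCDK12, with the first not called without shNT replicate 1 (0.75) or 2 (0.71). NFKBIE, which encodes IkB-epsilon, rose upon OHT in shNT from a range of 119 to 135 CPM to 171 to 198, and was lower with the CDK12 label, at 81.4 to 86.8 CPM without OHT and 90.3 to 101 with it. Its log2 fold changes were 0.50 ± 0.13, -0.62 ± 0.10 and, between the OHT groups, -0.91 ± 0.12 (adjusted p = 0.000178). The first was not called without shNT replicate 1 (0.44), 2 (0.50) or 3 (0.55).

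The atypical IkB proteins act in the nucleus as partners of NF-kB dimers on DNA. BCL3, one of them, had 11.9, 11.9 and 20.1 CPM in shNT, 15.7, 10.7 and 6.09 in shNT_OHT, 5.56, 3.57 and 3.70 in shCDK12 and 8.97, 9.98 and 8.89 in shCDK12_OHT. The shCDK12 libraries were the lowest of all 12. It was lower in shCDK12 than in shNT (-1.75 ± 0.31, adjusted p = 2.85e-05) and rose upon OHT there (1.17 ± 0.24, adjusted p = 0.000612). NFKBIZ, another, spans 161 to 207 CPM in shNT and 143 to 161 in shCDK12, ranges that overlap, and RefSeq places it over part of NXPE3, from which its reads could not be separated here.

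TNFAIP3 had its 3 lowest levels in the shNT libraries. It had 96.5, 91.7 and 58.6 CPM in shNT, 131, 138 and 170 in shNT_OHT, 145, 141 and 138 in shCDK12 and 191, 188 and 166 in shCDK12_OHT. OHT raised it in both backgrounds, by 0.81 ± 0.18 in shNT (adjusted p = 0.00652) and by 0.36 ± 0.08 in shCDK12 (adjusted p = 0.00134), and the CDK12 label without OHT by 0.75 ± 0.12 (adjusted p = 9e-06). TRAF1, an adaptor of TNF receptors, rose in the same 3 comparisons, from 26.7 to 31.1 CPM in shNT to 36.3 to 75.5 in shNT_OHT (0.92 ± 0.24), and to 39.5 to 44.7 in shCDK12 (0.51 ± 0.15), and from there to 51.9 to 53.7 in shCDK12_OHT (0.34 ± 0.10). Its call upon OHT was lost without shNT replicate 1 (0.85), 2 (0.94) or 3 (0.97) in shNT and without shCDK12_OHT replicate 2 (0.33) in shCDK12. RefSeq places WAKMAR2 over TNFAIP3 and PHF19 over TRAF1, and the use of strand in the counting is not given in the sources used here, so reads of these pairs may be mixed.

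BIRC3, which encodes the ubiquitin ligase cIAP2, and TNIP1, a partner of A20, both had their lowest group mean in shCDK12. BIRC3 had 60.9, 74.4 and 65.2 CPM in shNT, 54.8, 78.4 and 71.9 in shNT_OHT, 37.1, 31.3 and 27.9 in shCDK12 and 68.3, 65.1 and 67.8 in shCDK12_OHT. The 3 shCDK12 libraries were below the 9 others, which overlapped. The fall with the CDK12 label was -1.07 ± 0.14 (adjusted p = 5.99e-07) and the rise upon OHT in shCDK12 1.07 ± 0.11 (adjusted p = 6.33e-07), while OHT in shNT gave 0.01 ± 0.18 (adjusted p = 0.971). TNIP1 was lower in shCDK12 (-0.54 ± 0.15) and rose upon OHT there (0.58 ± 0.13). TNFAIP2, a TNF-induced gene linked to the exocyst, was highest in shNT, at 47.3, 50.6 and 33.1 CPM. It had 23.5, 17.3 and 26.4 CPM in shNT_OHT, 6.72, 7.24 and 9.25 in shCDK12 and 18.8, 20.7 and 21.0 in shCDK12_OHT. OHT moved it down in shNT (-0.94 ± 0.23, adjusted p = 0.0124, not called without shNT replicate 1 at -0.88 or 2 at -0.84) and up in shCDK12 (1.38 ± 0.18, adjusted p = 5.06e-06), so that shNT_OHT and shCDK12_OHT overlapped.

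**Figure D2:**
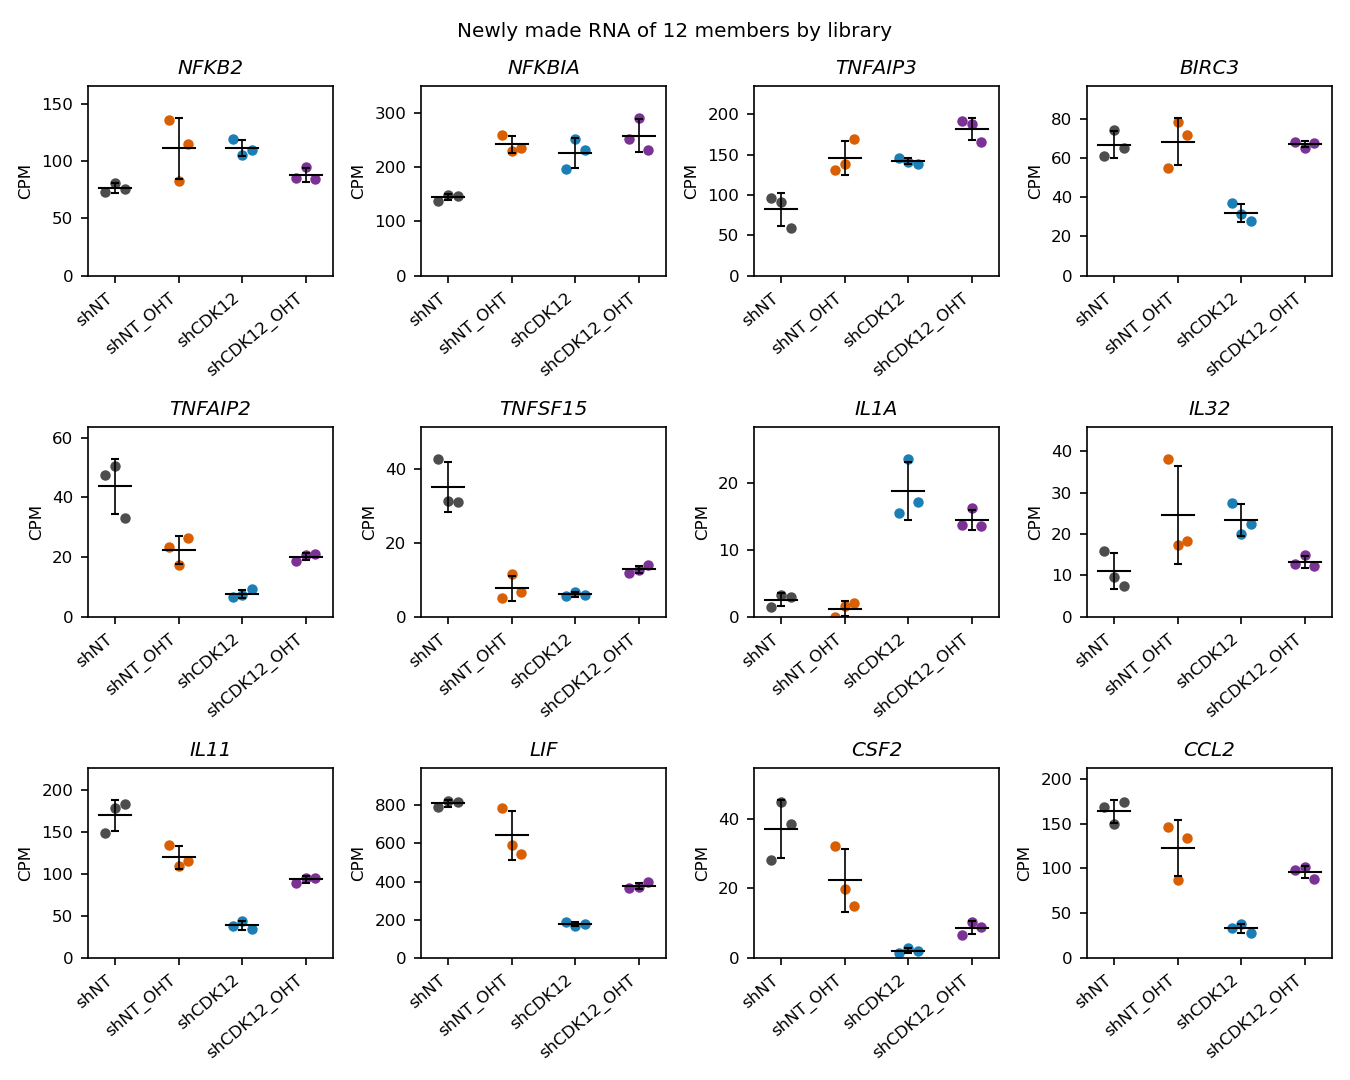
CPM (vertical axes, from 0) of 12 members in each of the 12 libraries (points), with the group mean as a bar and 1 SD as the error bar, for the 4 groups on the horizontal axes. LIF, IL11, CSF2, CCL2 and BIRC3 are lowest in the 3 shCDK12 libraries, while NFKBIA and TNFAIP3 are lowest in the 3 shNT libraries.

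In the TNF superfamily, TNFSF15, which encodes the cytokine TL1A, was lower with OHT and with the CDK12 label than in shNT. It had 42.9, 31.4 and 31.1 CPM in shNT, 5.01, 11.6 and 6.67 in shNT_OHT, 5.56, 6.72 and 5.92 in shCDK12 and 11.9, 12.6 and 14.0 in shCDK12_OHT. The shNT libraries stood above the other 9, and the shCDK12_OHT libraries above the remaining 6. The log2 fold change was -2.32 ± 0.32 upon OHT in shNT (adjusted p = 0.000292), -2.52 ± 0.22 with the CDK12 label (adjusted p = 3.32e-10) and 1.05 ± 0.20 upon OHT in shCDK12 (adjusted p = 0.000295). TNFSF9, the ligand 4-1BBL, rose upon OHT in shCDK12 from between 85.0 and 97.5 CPM to between 103 and 127 (0.33 ± 0.10, not called without shCDK12_OHT replicate 2 at 0.24). Its receptor gene TNFRSF9 passed no test, with 15.8 to 28.5 CPM over the 12 libraries.

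Of the interleukin genes, IL1A, which encodes the alarmin IL-1 alpha, was near the detection limit without the CDK12 label and passed the filter on low counts only through the libraries labelled shCDK12. It had 1.41, 3.32 and 3.01 CPM in shNT, from 6 to 17 counts, and 0, 1.65 and 2.03 CPM in shNT_OHT, from 0 to 7 counts. It had 15.5, 23.7 and 17.2 CPM in shCDK12 and 13.7, 16.3 and 13.6 in shCDK12_OHT, from 67 to 226 counts in these 6 libraries. All of these lay far above the shNT and shNT_OHT libraries. The fitted log2 fold changes were 2.90 ± 0.32 without OHT (adjusted p = 3.04e-08) and 3.66 ± 0.52 with it (adjusted p = 0.0003). OHT in shCDK12 gave -0.40 ± 0.17 (adjusted p = 0.0685).

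IL11, a cytokine of the gp130 family, had 148, 178 and 183 CPM in shNT and 134, 109 and 116 in shNT_OHT. It had 38.2, 43.7 and 33.9 CPM in shCDK12 and 89.1, 95.7 and 95.6 in shCDK12_OHT. The 4 groups did not overlap, in the order shNT, shNT_OHT, shCDK12_OHT and shCDK12 from high to low. The log2 fold changes were -2.12 ± 0.12 for the CDK12 label (adjusted p = 1.18e-13), 1.26 ± 0.11 for OHT in shCDK12 (adjusted p = 4.56e-08) and -0.50 ± 0.14 for OHT in shNT (adjusted p = 0.0271), the last lost without shNT replicate 2 (-0.48) or 3 (-0.43) or shNT_OHT replicate 2 (-0.41) or 3 (-0.44). LIF, of the same family, had 792, 825 and 820 CPM in shNT, 788, 593 and 546 in shNT_OHT, 188, 165 and 177 in shCDK12 and 369, 369 and 396 in shCDK12_OHT. The groups stood in the same order as for IL11 and did not overlap either, though shNT_OHT replicate 1 lay just below the lowest shNT library. LIF was lower with the CDK12 label without OHT (-2.21 ± 0.08, adjusted p = 3.82e-17) and with it (-0.75 ± 0.13, adjusted p = 0.00119), and rose upon OHT in shCDK12 (1.10 ± 0.08, adjusted p = 5.56e-09). Their shared receptor chain gp130, encoded by IL6ST, differed from shNT by -0.01 ± 0.09 in shCDK12 and by -0.28 ± 0.15 in shNT_OHT, neither of them called.

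IL18, an IL-1 family cytokine, had 181, 203 and 211 CPM in shNT, 170, 186 and 157 in shNT_OHT, 107, 134 and 119 in shCDK12 and 207, 213 and 207 in shCDK12_OHT. The 3 shCDK12 libraries were the lowest (-0.72 ± 0.10 against shNT, adjusted p = 1.03e-06), and IL18 rose upon OHT there (0.80 ± 0.09, adjusted p = 9.78e-07). IL32, a cytokine without a rodent counterpart, was highest in the groups with OHT or the CDK12 label alone, with 15.9, 9.56 and 7.52 CPM in shNT, 38.2, 17.3 and 18.3 in shNT_OHT, 27.6, 20.04 and 22.4 in shCDK12 and 12.6, 14.9 and 12.3 in shCDK12_OHT. Its rise upon OHT in shNT (1.16 ± 0.36, adjusted p = 0.0395) rested on single libraries and was not called without shNT replicate 2 (1.02), shNT replicate 3 (1.00) or shNT_OHT replicate 1 (0.67). It was higher with the CDK12 label (1.02 ± 0.24, adjusted p = 0.000711) and fell upon OHT there (-0.78 ± 0.16, adjusted p = 0.000717).

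The colony-stimulating factors differed from each other. CSF2, the growth factor GM-CSF, had 28.1, 44.7 and 38.6 CPM in shNT, 32.3, 19.8 and 14.8 in shNT_OHT, 1.39, 2.73 and 2.04 in shCDK12 and 6.66, 10.4 and 8.89 in shCDK12_OHT. The shCDK12 libraries held only 6 to 26 counts of it, and both groups with the CDK12 label lay below both without it. Its log2 fold change of -4.07 ± 0.27 between shCDK12 and shNT (adjusted p = 2.87e-12) was the lowest of any member, and that upon OHT in shCDK12 was 1.98 ± 0.29 (adjusted p = 2.4e-05). In both comparisons CSF2 passed the minimum count only through the higher group. CSF1, the growth factor of macrophages, was not called between shCDK12 and shNT (-0.17 ± 0.16, adjusted p = 0.353) and was higher in shCDK12_OHT, at 43.5 to 46.5 CPM, than in shNT_OHT, at 14.9 to 31.3 (0.87 ± 0.21, adjusted p = 0.0068).

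Of the 7 chemokines, CCL2, which recruits monocytes, followed LIF and IL11. It had 168, 150 and 174 CPM in shNT, 147, 87.4 and 135 in shNT_OHT, 32.9, 38.1 and 27.6 in shCDK12 and 98.3, 102 and 88.3 in shCDK12_OHT. The shCDK12 libraries were the lowest, and shNT_OHT overlapped shCDK12_OHT through its replicate 2. The log2 fold changes were -2.30 ± 0.13 for the CDK12 label (adjusted p = 5e-14) and 1.54 ± 0.12 for OHT in shCDK12 (adjusted p = 1.27e-08), against -0.39 ± 0.17 for OHT in shNT (adjusted p = 0.122).

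CXCL8, the neutrophil chemokine IL-8, rose upon OHT in both backgrounds. It had 61.6, 61.3 and 62.7 CPM in shNT, 76.8, 124 and 137 in shNT_OHT, 24.1, 54.8 and 32.2 in shCDK12 and 67.4, 77.4 and 77.3 in shCDK12_OHT. The rise was 0.85 ± 0.20 in shNT (adjusted p = 0.00876, not called without shNT replicate 2 at 0.83 or shNT_OHT replicate 3 at 0.69) and 0.94 ± 0.18 in shCDK12 (adjusted p = 0.000396), and the libraries with OHT lay above those without it in each background. CCL20 reached 7.80 to 10.5 CPM in shCDK12_OHT and 2.34 to 7.03 in the other 9 libraries, and it was tested only in the comparisons that hold shCDK12_OHT. CXCL1 had 2 counts and CXCL2 4 counts in 1 shCDK12 library each and 0 in the other 11, where a count of 0 allows up to 3 counts, or 0.285 to 2.47 CPM by library. CXCL3 was measured at 0.825 to 6.48 CPM and was tested only upon OHT in shCDK12 (-0.08 ± 0.26, not called). These 3 genes are close copies of one another, and how reads shared between them were counted is not given in the sources used here, so their low values are uncertain. CCL5 stayed at 9 counts or fewer in every library.

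The other members that could not be tested were low throughout, with at most 19 counts of IL1B, 29 of IL6, 29 of IL7, 47 of IL15 and 40 of the adhesion gene ICAM1 in any library, and the filter kept them from being tested. With a looser filter or none, 3 of the 8 were called in 1 comparison each, IL6 lower in shCDK12 than in shNT (-1.84 ± 0.54 with a minimum of 10), CCL5 lower upon OHT in shCDK12 (-3.06 ± 1.0 with no filter) and IL7 higher in shCDK12_OHT than in shNT_OHT (2.67 ± 0.90 with no filter). SOD2, the mitochondrial superoxide dismutase and the tested effector, had 69.8, 71.2 and 63.2 CPM in shNT, 59.5, 78.4 and 60.3 in shNT_OHT, 94.7, 119 and 118 in shCDK12 and 94.8, 78.9 and 89.8 in shCDK12_OHT. All libraries labelled shCDK12 lay above those of shNT, and SOD2 was higher there (0.69 ± 0.12, adjusted p = 1.22e-05). RefSeq places WTAP, ACAT2 and SOD2-OT1 over parts of SOD2, so its reads may include theirs.

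**Figure D3:**
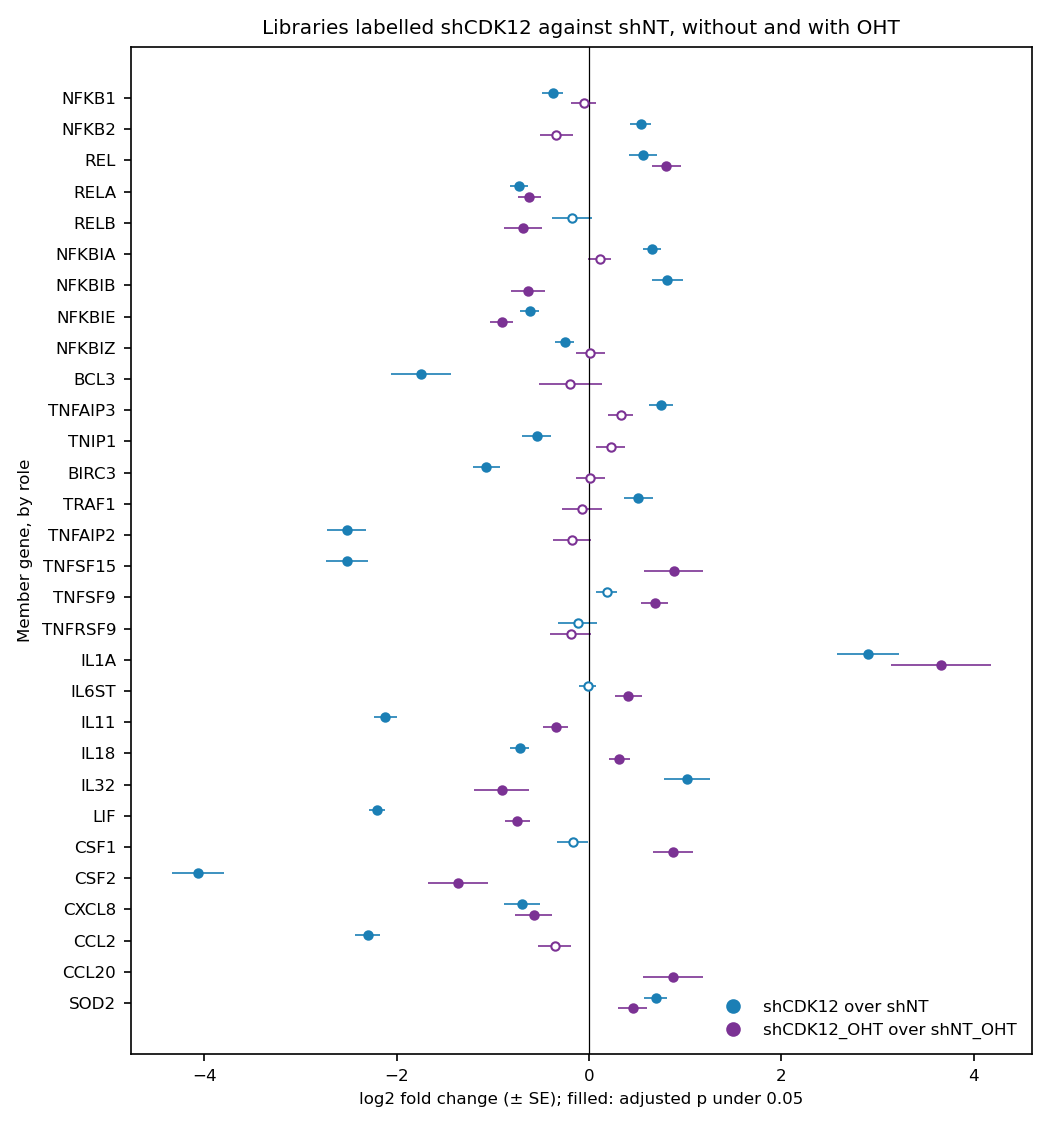
Log2 fold change (horizontal axis, with the standard error) of the libraries labelled shCDK12 over shNT, without OHT (blue) and with OHT in both arms (purple), for the members tested in either (vertical axis). Filled points have an adjusted p under 0.05; CSF2 lies farthest to the left at -4.07 without OHT and IL1A farthest to the right at 3.66 with OHT.

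The response to OHT was then compared between the shRNAs by the interaction term of a fit over all 12 libraries, which is the log2 fold change upon OHT in shCDK12 minus that in shNT. Of 29 members tested, the term was above 0 for 12 and below 0 for 4 at an adjusted p under 0.05, against 25.6% and 19.6% of all genes tested. The medians were 0.30 over the members and 0.10 over all genes, and upper-quartile normalization moved the median of all genes to -0.02. The split was 11 higher and 7 lower with that normalization, with DESeq2 and with the gene length trend removed. Among the members called, TNFSF15, CSF2 and BCL3 had mean normalized counts in shCDK12 at or under the minimum of 32 (31.3, 10.6 and 22.1). They passed the filter through the groups where they are high, so their terms show no more than the levels given above.

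Among the 28 members tested for OHT in both backgrounds, 3 rose in both (TNFAIP3, TRAF1 and CXCL8), and their interaction terms, from -0.61 to 0.11, were not called. The 3 that rose in shNT and fell in shCDK12 were NFKB2 (interaction -0.90 ± 0.20, adjusted p = 0.000903), NFKBIB (-1.46 ± 0.24, adjusted p = 6.82e-05) and IL32 (-1.95 ± 0.40, adjusted p = 0.000568). The 3 that fell in shNT and rose in shCDK12 were TNFSF15 (3.39 ± 0.36, adjusted p = 3.81e-07), TNFAIP2 (2.32 ± 0.29, adjusted p = 3.31e-06) and IL11 (1.76 ± 0.18, adjusted p = 2.33e-07). None fell in both. A further 9 rose only in the test within shCDK12 (BCL3, TNIP1, BIRC3, TNFSF9, IL18, LIF, CSF1, CSF2 and CCL2), and for these 9 the interaction term was also called higher, from 0.48 for TNFSF9 to 2.7 for CSF2. NFKBIA and NFKBIE rose only in the test within shNT, with interaction terms of -0.56 ± 0.16 (adjusted p = 0.00651) and -0.31 ± 0.15 (adjusted p = 0.099), so that a difference was shown for NFKBIA and not for NFKBIE.

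**Figure D4:**
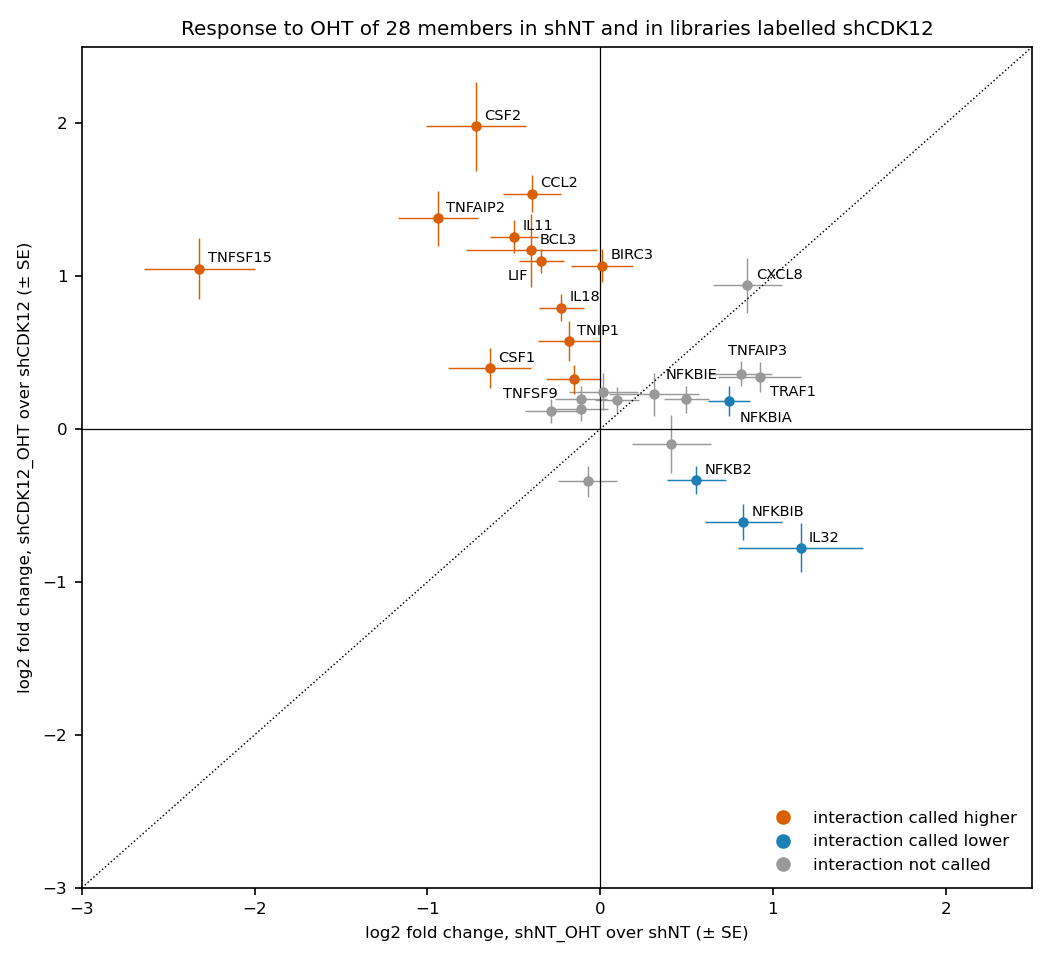
Log2 fold change upon OHT in shNT (horizontal axis) against that in the libraries labelled shCDK12 (vertical axis) for the 28 members tested in both, with standard errors, coloured by the call of the interaction term; the dotted line marks equal responses. The 12 orange genes lie above the line, TNFSF15 farthest at -2.32 and 1.05, and the 4 blue genes lie below it, IL32 farthest at 1.16 and -0.78.

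For the wider pathway, 42 other genes of NF-kB signalling were examined, among them receptors, adaptors, kinases and ubiquitin enzymes. Of 37 tested upon OHT in shNT, 3 were higher and 3 lower, or 8.11% each way, near the 9.05% and 8.29% of all genes. The lymphotoxin receptor gene LTBR rose from a mean of 63.9 to 136 CPM (1.08 ± 0.16, adjusted p = 0.000611). Of 39 tested in shCDK12 against shNT, 7 were higher and 20 lower (17.9% and 51.3%, against 29.6% and 32.4% of all genes), with a median of -0.36 against -0.03. The TNF receptor gene TNFRSF1A was at 329 CPM in shNT and 64.9 in shCDK12 on average (-2.35 ± 0.09, adjusted p = 8.17e-17), and OTULIN, an enzyme that removes linear ubiquitin chains, went from 179 to 351 (0.97 ± 0.09, adjusted p = 8.8e-10). Upon OHT in shCDK12, 20 of 41 were higher and 4 lower (48.8% and 9.76%, against 27.5% and 21.5%), with TNFRSF1A up by 0.96 ± 0.09 and RIPK1, the kinase at the TNF receptor, by 0.70 ± 0.10. Between the OHT groups, 12 of 41 were higher and 9 lower (29.3% and 22.0%, against 23.8% and 21.6%), with LTBR at -1.15 ± 0.14 and TNFRSF1A at -0.97 ± 0.12. In the interaction, 18 of 40 were higher and 5 lower (45.0% and 12.5%, against 25.6% and 19.6%), with TNFRSF1A at 1.35 ± 0.15 and LTBR at -1.67 ± 0.20.

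Of 16 receptor genes of the member cytokines, at most 9 had enough reads in any comparison, too few to read against the shares of all genes, which are those given for the signalling genes above. OSMR, a signalling partner of gp130, had mean levels of 241 CPM in shNT, 175 in shNT_OHT, 42.4 in shCDK12 and 77.4 in shCDK12_OHT, the group order of LIF and IL11. It was called in all 5 comparisons, lower upon OHT in shNT (-0.47 ± 0.12) and with the CDK12 label (-2.50 ± 0.10), higher upon OHT in shCDK12 (0.86 ± 0.10), lower between the OHT groups (-1.15 ± 0.13), and with an interaction of 1.34 ± 0.16. Upon OHT in shNT 3 of the 4 tested receptors were lower and 0 higher, the others being LIFR (-0.66 ± 0.18), which pairs with gp130 for LIF, and IL7R (-0.32 ± 0.10). In shCDK12, IL7R was lower (-1.80 ± 0.08) and IL6R higher (1.05 ± 0.14), and the list had 2 higher and 2 lower of 6. Upon OHT in shCDK12 3 of 9 were higher and 0 lower, between the OHT groups 3 of 7 were higher and 3 lower, and in the interaction 3 of 7 were higher and 1 lower.

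Of 26 other genes known as NF-kB targets, 2 of 11 tested rose upon OHT in shNT and 0 fell. They were IER3, an early response gene, from a mean of 1213 to 2007 CPM (0.72 ± 0.09, adjusted p = 0.000188), and CD83, from 35.4 to 78.1 (1.12 ± 0.20, adjusted p = 0.00185). In shCDK12, 7 of 15 were higher and 6 lower, with CD83 at 133 CPM (1.87 ± 0.13), GCH1 up from 5.87 to 47.7 (3.03 ± 0.22) and CD44 down from 261 to 120 (-1.12 ± 0.09). Upon OHT in shCDK12, 6 of 14 were higher and 5 lower. TNF, the founding cytokine of the pathway, fell there from a mean of 17.4 to 6.92 CPM (-1.33 ± 0.18, adjusted p = 1.21e-05). It had 0.818 CPM in shNT, from 1 to 5 counts, and 6.70 in shNT_OHT, from 8 to 25 counts, so its fitted interaction of -4.24 ± 0.47 (adjusted p = 5.45e-07) rests on a baseline near 0. Between the OHT groups 4 of 14 were higher and 4 lower, and in the interaction 3 of 15 were higher and 5 lower. In that last fit, TNF, NOS2 and MMP9 were each called with a group at or under the minimum of 32. Against the shares of all genes, the target list had 18.2% higher and 0% lower upon OHT in shNT (9.05% and 8.29% of all genes), 46.7% and 40.0% in shCDK12 (29.6% and 32.4%), 42.9% and 35.7% upon OHT there (27.5% and 21.5%), 28.6% each way between the OHT groups (23.8% and 21.6%) and, in the interaction, 3 of 15 higher and 33.3% lower (25.6% and 19.6%). With 11 to 15 genes tested, 1 gene moves these shares by several percentage points. In shCDK12 against shNT, GCH1, TNF, NOS2 and MMP9 passed the minimum of 32 only through the group where they are high. So did NOS2 upon OHT in shCDK12. The filter favoured a difference for these genes without fixing the calls, and the shares above include those calls. Among the other lists this held for IRAK4, TRADD and CSF1R in shCDK12 against shNT and for TLR3 and CCR6 between the OHT groups. It also held for COL5A1 upon OHT in shNT and EPCAM upon OHT in shCDK12. In the interaction, IRAK4 and TRADD were called higher with shCDK12 under the minimum (30.0 and 26.5). CCR6 was called lower there with shNT, shCDK12 and shCDK12_OHT under it.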

How the data were processed

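The 12 EU-seq libraries were deposited as raw counts per gene in a single table by Entrez identifier, which the authors did not normalize. The submitters' processing notes name STAR 2.7.5c, featureCounts 1.4.5-p1 and hg19. Their options, annotation and use of strand are not given in the sources used here. The library kit was a stranded total RNA kit. The table has no mouse rows, so values are relative to all human counts, and a change in total transcription cannot be seen. RefSeq symbols (GRCh38.p14) were matched by identifier for 23284 of 23434 rows; 150 stayed without. Since the builds differ, no coordinates are given for counted genes.

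Counts were tested with edgeR 4.0.16 (quasi-likelihood test, TMM, R 4.3.3) on the libraries of each comparison, or all 12 for the interaction, in genes with a mean normalized count above 32, with Benjamini-Hochberg adjustment over all genes tested at 0.05. Errors are standard errors from that fit. Every group had 3 libraries, and no pair of libraries agreed within sampling noise. The groups' shared replicate numbers were checked across genes as deviations from the group means. Same-numbered libraries deviated together with r from -0.09 to 0.30 (median 0.03), over 0.1 in 2 of 18 pairs. Differently numbered libraries had r from -0.34 to 0.10 (median -0.02), over 0.1 in 0 of 36 pairs. Same-numbered libraries were thus slightly more alike. The numbers were not taken as a pairing in the main fits and entered an alternative as a replicate block. Alternatives were DESeq2 1.42.0, upper-quartile normalization, no filter or a minimum of 10, a replicate block, 1 fit of all libraries, thinning to 1251695 counts, removal of the gene length trend and leaving out each library. The fits were tested on simulated data.

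The members and gene lists, the named-gene rule and the tests were chosen with earlier results of these data known. All members are accounted for; members with an adjusted p under 0.05 are described as changed, at most 3 genes of each other list are named per comparison (smallest adjusted p), and CDK12 is a check. The floor of 3 counts for a gene at 0 covers counting error only. A leukocyte marker of the list is not reported here and was left out of its sum.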

Additional observations from a re-analysis of the deposited data

Results flagged for a closer look

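For 16 members the response to OHT differed between the libraries labelled shCDK12 and shNT by the interaction term (edgeR adjusted p under 0.05 over all genes tested). On the log2 scale, the response was higher in the libraries labelled shCDK12 by 3.39 for TNFSF15, 2.7 for CSF2, 2.32 for TNFAIP2, 1.92 for CCL2, 1.76 for IL11, 1.54 for BCL3, 1.44 for LIF, 1.06 for BIRC3, 1.02 for IL18, 1.01 for CSF1, 0.74 for TNIP1 and 0.48 for TNFSF9. It was lower for IL32 (-1.95), NFKBIB (-1.46), NFKB2 (-0.90) and NFKBIA (-0.56). The terms of TNFSF15, CSF2 and BCL3 rest on few counts in shCDK12, where these members were at or under the minimum of 32. The call held for 13 of the 16 in every alternative that tested them, and 5 of the 16 were not tested with thinned libraries. The call was lost for CSF1 with thinned libraries (0.78) and for TNIP1 with the gene length trend removed (0.52). TNFSF9 lost it without 8 of the 12 libraries in turn (0.40 to 0.58 over the 12) and in 4 other settings. The CDK12 level itself had an interaction of -0.83 (adjusted p = 4.55e-05). Of the 5 mesenchymal markers tested, 4 had an interaction called higher, RUNX2 (1.54) and SPARC (1.17) among them, and 1 was not called. The part of CDK12 and of these markers in the members' values was not tested.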

How the results depend on the processing

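The number of members called upon OHT in shNT (11) ranged from 3 to 14 when 1 library was left out, and that between shCDK12_OHT and shNT_OHT (18) from 8 to 18. The other counts stayed within 1.5 times of the reported value when 1 library was left out, from 23 to 24 for shCDK12 against shNT, 14 to 23 for OHT in shCDK12 and 15 to 17 for the interaction. With every library thinned to 1251695 counts, fewer members passed the filter, and 11 members were called for OHT in shCDK12, all among the 20, 7 for shCDK12_OHT against shNT_OHT, all among the 18, and 9 for the interaction, all among the 16. With the replicate block the counts were 10 for OHT in shNT, 24 for shCDK12 against shNT and 20 for OHT in shCDK12. They were 14 between the OHT groups and 17 for the interaction. The check of the numbers left a weak pairing possible, and 8 of the 12 libraries correlated best with their own number. The difference of CDK12 between shCDK12 and shNT (-0.08) reversed to 0.01 with upper-quartile normalization (0.0145) and to 0.02 with the gene length trend removed (0.0158), and its rise upon OHT in shNT (0.38) ranged from 0.33 to 0.49 without 1 library and was lost in 4 of 6 such fits. Over the single members called, 1169 of the alternative fits kept the call and direction, 127 kept the direction but not the call, and 0 reversed. The cause of these changes was not tested. Depth limits the genes with few counts most in shNT_OHT replicate 2.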
